A study of Sus scrofa with 80 samples.

Results

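A set of 6 genes of the Sertoli cell and of testis determination was followed through the endocrine tissues of young pigs: the transcription factors DMRT1 and SOX9, the testis protein FATE1, and the Sertoli cell products CLU, CLDN11 and SERPINA5. A probeset, the set of array probes that measures a transcript, was taken as a member when the platform annotation gave it the symbol of 1 of these genes and no other. By this rule 7 of the 23999 probesets analysed were members, for 6 of the 6765 genes with a symbol of their own. DMRT1 was measured by Ssc.321.1.S1_at, FATE1 by Ssc.81.1.S1_at, CLU by Ssc.11992.1.A1_at, CLDN11 by Ssc.8335.1.S1_at and SOX9 by Ssc.16373.1.S1_at. SERPINA5 was measured by both Ssc.20156.1.S1_at and Ssc.18037.1.S1_at, which are given apart.

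The 80 arrays held RNA of hypothalamus, adenohypophysis, thyroid gland, gonad and backfat of 16 pigs given no treatment, with 1 array for every tissue of a pig. There were 2 males and 2 females each of the Large White, the Duroc and the Iberian, and 3 males and 1 female of the Youli, a line of crossed European and Chinese origin, so that 9 gonads were testes and 7 were ovaries. Housing and feed were common to all pigs from weaning on. Mean age at slaughter was 87 days in Large White, 83 in Duroc, 80 in Youli and 89 in Iberian pigs. Mean live weight was 27.2, 23.1, 18.9 and 17.4 kg in the same order. Breed, age and weight therefore cannot be told apart. The pigs came from more than 1 breeding company. Pigs are named by breed (LW, DU, IB, YL), sex (M or F) and number, as in LWM02. Levels are log2 values, so that a difference of 1 is a doubling on this scale. The middle of all values was 4.85, and 25% of them lay below 2.63, where the scale has its floor: values there have no order, and a difference from them is no fold change.

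Sertoli cells are the supporting cells of the seminiferous tubule. In mouse and human, the Y-linked factor SRY switches on SOX9 in the early gonad, SOX9 drives the cells towards the Sertoli fate, and DMRT1 later keeps them from turning into granulosa cells, their counterparts in the ovary. Sertoli cells close the blood-testis barrier with tight junctions that contain claudin 11 and release proteins such as clusterin into the tubule. Several of these genes also work elsewhere: claudin 11 seals the myelin of oligodendrocytes, clusterin is secreted by astrocytes and many epithelia, and SOX9 acts in cartilage, glia and other progenitor cells.

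Some arrays stood apart, and results that turn on them are also given without them. The ovary array of the Iberian female IBF25 had an average of 2.83 over 6 oocyte genes, against 7.64 to 9.61 in the other ovaries, and of 4.28 over 10 granulosa genes, against 7.03 to 8.42. Its average over 7 genes of reproductive tract epithelium was the highest of the ovaries, 5.08, where their median was 3.82. Of these genes WFDC2 stood at 11.76 and DEFB1 at 8.01, while MSMB was highest in another ovary and the rest lay at the floor. Whether this array holds tissue other than ovary was not tested. The backfat array of the Youli male YLM19 carried the level of testis genes described at the end. The breed and sex fields of 11 of the 16 thyroid arrays conflicted with their titles, and the titles were used, by which the Y-linked gene EIF1AY lay on the side of the labelled sex in 80 of 80 arrays. In all of these tissues, fewer cells of a type and less RNA per cell cannot be told apart.

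All 7 member probesets were higher in testes than in ovaries, at an adjusted p under 0.05 from limma with breed as a covariate. The members were chosen with earlier results of these data known. Counts of members that passed, here and below, are therefore no independent evidence about these genes. Of all probesets 15.0% were higher and 13.2% lower in this comparison. Every testis lay above every ovary for all 7, which 5.14% of all probesets also showed. The differences ran from 2.58 for CLU to 8.60 for FATE1.

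DMRT1 ranged from 9.12 through a median of 10.28 to 11.02 in the testes. In the ovaries it lay between 2.83 and 4.80 with a median of 3.09, and 6 of the 7 did not exceed 3.35. The high ovary was that of the Duroc female DUF14, and it was still far below the lowest testis, that of IBM23. The difference was 6.85 (SE 0.31, adjusted p = 2.0e-08), and 6.70 to 7.09 when any 1 pig was left out.

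SOX9 was the dimmest member in the testis. It ran from 5.09 through 5.76 to 6.03 in the testes, slightly above the middle of all values on the arrays, and from 2.24 through 2.34 to 2.53 in the ovaries, where all 7 were at the floor. The difference of 3.36 (SE 0.12, adjusted p = 2.4e-09) was therefore set by the testes alone. LWM02 had both the lowest SOX9 and the highest DMRT1 of the testes.

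FATE1, which takes its name from its transcription in fetal and adult testis, ran from 9.71 through 10.40 to 10.70 in the testes. All ovaries lay at the floor, between 1.51 and 1.58. The spread among testes was small, with an SD of 0.36, and the difference of 8.60 had an SE of 0.11 (adjusted p = 6.8e-14). It was the third smallest p of all 23999 probesets. The spread behind it also included the ovaries, which at the floor had an SD of 0.027.

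CLU, which codes for the secreted chaperone clusterin, was the brightest member, from 14.21 through 14.45 to 14.67 in the testes. The ovaries held it too, at 9.81 in DUF13, 11.29 in IBF22, 11.68 in YLF21, 11.92 in DUF14, 12.36 in LWF05, 12.45 in LWF06 and 13.93 in IBF25. The groups came close to each other only through IBF25, the ovary with low oocyte and granulosa transcripts. The difference was 2.58 (SE 0.41, adjusted p = 5.6e-04) over all pigs and 2.92 (adjusted p = 1.8e-05) without IBF25.

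CLDN11, the claudin of the Sertoli cell tight junction, ran from 12.77 through 13.39 to 13.64 in the testes. The ovaries were spread widely, with 11.94 in IBF22, 11.73 in DUF13 and 11.35 in YLF21, then 9.01 in DUF14, 8.46 in LWF06, 8.12 in LWF05 and 6.77 in IBF25. No ovary reached the lowest testis. The difference was 3.51 (SE 0.70, adjusted p = 0.00245) and 3.0 (adjusted p = 0.00196) without IBF25.

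SERPINA5 codes for protein C inhibitor, a secreted inhibitor of serine proteases found in the fluids of the male tract. By Ssc.20156.1.S1_at the testes ran from 12.20 through 12.67 to 13.08. The ovaries stood at 8.35 in DUF14, 6.58 in DUF13, 6.17 in IBF22 and 5.29 in YLF21, and at the floor of 2.18 to 2.23 in LWF05, LWF06 and IBF25. By Ssc.18037.1.S1_at the testes ran from 11.24 through 12.11 to 12.70 and the ovaries from 2.24 through 2.98 to 7.28, with DUF14 again highest. The differences were 7.98 (SE 0.73, adjusted p = 8.0e-06) and 8.44 (SE 0.52, adjusted p = 3.5e-07), so that the probesets differed from each other by less than the SE of the former.

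**Figure D1:**
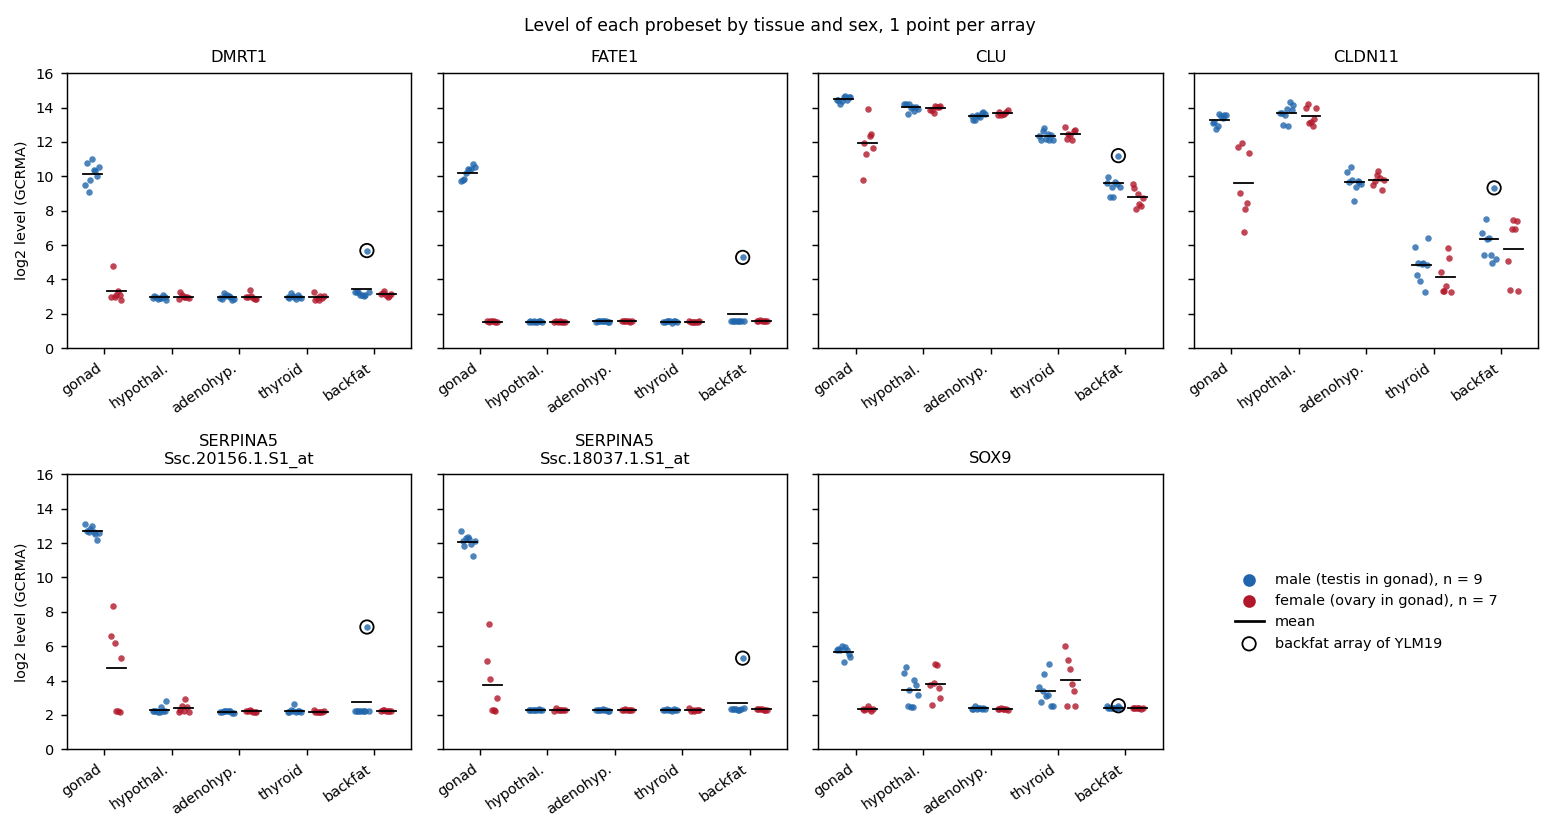
Log2 level (vertical axis) of each member probeset by tissue, 1 point per array, with males (n = 9, testis in the gonad column) in blue, females (n = 7, ovary) in red and group means as black lines. DMRT1, FATE1 and SERPINA5 are high in the testes and near the floor elsewhere, except in the circled backfat array of YLM19. Other exceptions are DMRT1 in the ovary of DUF14 and SERPINA5 in some ovaries. CLU and CLDN11 are also high in the hypothalamus.

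The other genes of the Sertoli cell and of testis determination did not share one direction. Of 42 listed, 24 had a probeset of their own, and 5 of these were higher and 4 lower in testes, with a median difference of 0.08 against 0.02 over all probesets. Of all probesets 15.0% were higher and 13.2% lower. Because the members were chosen with earlier results known, these counts cannot show that the members differ from other Sertoli cell genes. MRO, a gene of the early mouse testis, was higher by 4.79 (SE 0.64, adjusted p = 1.6e-04), at 5.28 to 8.89 in testes and 2.16 to 5.44 in ovaries. NR0B1, the nuclear receptor DAX1, was higher by 2.81 (SE 0.47, adjusted p = 7.0e-04), at 6.06 to 7.88 against 2.23 to 5.66. FGFR2, a receptor of the growth factor FGF9, stood lower in testes, with a difference of -2.11 (SE 0.38, adjusted p = 0.00122). Defining Sertoli cell markers were present in the testes, with AMH at 5.07 to 11.05, INHA at 8.41 to 10.98, WT1 at 5.44 to 7.87 and GATA4 at 8.32 to 9.90. These are also genes of granulosa cells, the ovaries held them at up to 8.83, 12.15, 9.42 and 9.08, and none of the 4 passed the test (adjusted p from 0.186 to 0.951). The ovary of IBF25 had AMH, INHA and GATA4 at the floor and the highest WT1, and without it 7 of the 24 genes were higher and 4 lower. GATA4 (0.60, adjusted p = 0.0322) and NR5A1, the steroidogenic factor SF-1 (1.13, adjusted p = 0.00205, against 1.79 and 0.0559 with it), then passed. The difference of INHA moved from 0.12 to -1.19 (adjusted p = 0.0621) and that of AMH from 2.03 to 1.11 (adjusted p = 0.269). SRY lay at the floor in testes, at 1.97 to 2.15, as in ovaries, at 1.95 to 2.06.

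Tight junction genes other than CLDN11 were not higher in testes. Of 18 listed, 9 were measured, 0 were higher and 2 were lower (median difference -0.19). CLDN10 differed by -3.58 (SE 0.51, adjusted p = 2.5e-04), at 2.60 to 3.79 in testes and 4.87 to 9.46 in ovaries, and CLDN7, a claudin of epithelia, by -3.11 (SE 0.93, adjusted p = 0.0254). CLDN7 was highest in IBF25, and without that ovary its difference was -2.33 (adjusted p = 0.0186). Occludin (OCLN) was at 4.57 to 6.81 in testes and TJP1, the scaffold protein ZO-1, at 4.46 to 5.01.

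Genes of the neighbouring cell types in the gonads moved with sex as well. Of 9 Leydig cell and androgen synthesis genes 6 were higher in testes and 0 lower (median 2.82), led by CYP17A1, the enzyme that makes androgen precursors (8.99, SE 0.66, adjusted p = 1.4e-06), with STAR and CYP11A1, which bring cholesterol into steroid synthesis, next at 7.14 and 5.88. Of 10 ovary determination and granulosa genes 5 were lower and 0 higher, led by follistatin (FST, -7.48), HSD17B1 (-7.15) and BMPR1B (-3.14), and of 6 oocyte genes all 6 were lower, led by ZP3 (-6.17), ZP4 (-6.13) and GDF9 (-4.67). Of 5 germ cell genes 2 were lower, DPPA5 (-8.14) and UCHL1 (-1.39), and of 6 meiosis and spermatid genes 0 passed. Smooth muscle genes were lower in 3 and higher in 1 of 5, with CNN1 at -4.15, TAGLN at -2.44 and ACTA2 at -1.72. Of 9 myelin genes MBP (-1.50) and MAL (-1.37) were lower, and of 5 adipocyte genes PPARG (-4.13) and FABP4 (-0.91). None passed among 7 genes of tract epithelium, 5 of astrocytes, 4 of thyroid follicular cells, 9 of adenohypophysis hormone cells, 2 other SOX genes and 3 other clade A serpins. Without IBF25 the granulosa gene SERPINE2 passed as well (-5.01, adjusted p = 5.9e-08, against -3.62 and 0.0548 with it), the difference of FST was -8.68 and that of HSD17B1 -8.23, and the counts of the other lists of this paragraph were the same. How far these cell types contribute to the member differences was not tested.

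Set against the average of the hypothalamus, adenohypophysis, thyroid and backfat of the males, all 7 member probesets were again higher in testis, where 23.5% of all probesets were higher and 27.3% lower. The differences were 7.06 (SE 0.22) for DMRT1, 8.55 (SE 0.10) for FATE1, 2.13 (SE 0.29) for CLU, 4.65 (SE 0.49) for CLDN11, 10.30 (SE 0.53) and 9.70 (SE 0.39) for SERPINA5 and 2.77 (SE 0.14) for SOX9, with adjusted p values from 6.0e-29 to 4.9e-07. The lowest testis lay above all 71 other arrays for DMRT1, FATE1 and both SERPINA5 probesets, that is 4 of 7, and for 0.850% of all probesets. CLU, CLDN11 and SOX9 each met another tissue that reached the testis range.

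For CLU the order was testis at 14.50 ± 0.15 (SD, n = 9), hypothalamus at 13.98 ± 0.18, adenohypophysis at 13.59 ± 0.16, thyroid at 12.41 ± 0.27 (n = 16 each), ovary at 11.92 ± 1.25 (n = 7) and backfat at 9.24 ± 0.75 (n = 16). Testis exceeded hypothalamus by 0.49 (SE 0.28, adjusted p = 0.164), which did not pass, and 2 hypothalamus arrays reached the lowest testis. The fit pools the spread over 4 groups, ovaries among them (SD 1.25), where testis had 0.15 and male hypothalamus 0.20. This test therefore cannot say whether the 2 tissues differ. Adenohypophysis and hypothalamus ranges overlapped, as did those of ovary with thyroid and backfat, whereas every adenohypophysis lay above every thyroid gland.

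CLDN11 was highest in the hypothalamus, at 13.61 ± 0.48 (SD, n = 16), where all 16 arrays, from 12.90 to 14.33, lay above the lowest testis. Testis followed at 13.29 ± 0.31, with a difference of -0.39 (SE 0.45, adjusted p = 0.563) that did not pass, and then came adenohypophysis at 9.73 ± 0.47, ovary at 9.63 ± 2.04, backfat at 6.12 ± 1.57 and thyroid at 4.53 ± 1.01. The neighbours from adenohypophysis to thyroid overlapped in range, while every testis lay above every adenohypophysis. The SE of testis against hypothalamus again pooled in the ovaries (SD 2.04), so that test cannot say whether these tissues differ. The 9 myelin genes averaged 8.08 to 9.43 in the hypothalamus arrays and 2.67 to 2.96 in the testes, while CLDN11 ranged over similar levels in both tissues.

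SOX9 varied within 2 tissues outside the gonads. In the thyroid gland it ran from 2.50 to 5.99 (mean 3.66 ± 1.09 SD, n = 16) and in the hypothalamus from 2.45 to 4.99 (mean 3.60 ± 0.87), whereas backfat, adenohypophysis and ovary lay at the floor, with 2.54 as their highest array. The thyroid glands of IBF25 at 5.99 and DUF13 at 5.21 reached into the testis range, and those of YLF21, YLM20, LWF06 and YLM19 stayed between 2.50 and 2.53. Testis exceeded thyroid by 2.29 (SE 0.34, adjusted p = 2.3e-06) and hypothalamus by 2.24 (SE 0.31, adjusted p = 4.1e-07).

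In comparisons with each tissue, added after the values had been seen, 5 of 7 members passed against hypothalamus (50.5% of all probesets), and 7 of 7 against adenohypophysis (48.8%), thyroid (45.5%) and backfat (60.7%). The smallest difference that passed was that of CLU over adenohypophysis, 0.98 (SE 0.27, adjusted p = 0.00385).

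In the ovary, 3 of the 7 probesets differed from the average of the females' remaining tissues. Both SERPINA5 probesets were higher, by 2.46 (SE 0.60, adjusted p = 0.00143) and 1.46 (SE 0.45, adjusted p = 0.00898), and SOX9 was lower, at -0.79 (SE 0.16, adjusted p = 1.5e-04), where 19% of all probesets were higher and 26.7% lower. Without DUF14 the latter SERPINA5 probeset was higher by 0.88 (adjusted p = 0.0319). The SEs of SERPINA5 came from a spread pooled with the testes and the other tissues. The ovaries had SDs of 2.51 and 1.89 (n = 7), against 0.265 and 0.40 in the testes. These 2 calls therefore rest on an assumption of equal spread that the groups did not meet. CLDN11 was at 1.31 (SE 0.55, adjusted p = 0.0542), a value that rested on single ovaries, with 1.88 (adjusted p = 0.00249) without IBF25 and 0.91 (adjusted p = 0.19) without DUF13. DMRT1 at 0.28 (0.036 without DUF14) and FATE1 at -0.01 did not pass, nor did CLU at -0.30. Against hypothalamus 5 of 7 passed (49.1% of all probesets), against adenohypophysis 3 of 7 (42.9%), against thyroid 4 of 7 (38.3%) and against backfat 4 of 7 (53.8%). CLDN11 in the ovary lay between tissues, lower than hypothalamus by a difference of -3.89 (SE 0.51) and higher than thyroid by 5.47 (SE 0.65). The average for CLU likewise joined opposite differences. They were -2.03 (SE 0.32) from hypothalamus, -1.75 (SE 0.31) from adenohypophysis and 3.14 (SE 0.41) from backfat, while thyroid (-0.55, SE 0.32) did not pass. SOX9 was lower than hypothalamus (-1.46, SE 0.35) and thyroid (-1.66, SE 0.38) only, with -0.01 from adenohypophysis and -0.04 from backfat.

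**Figure D2:**
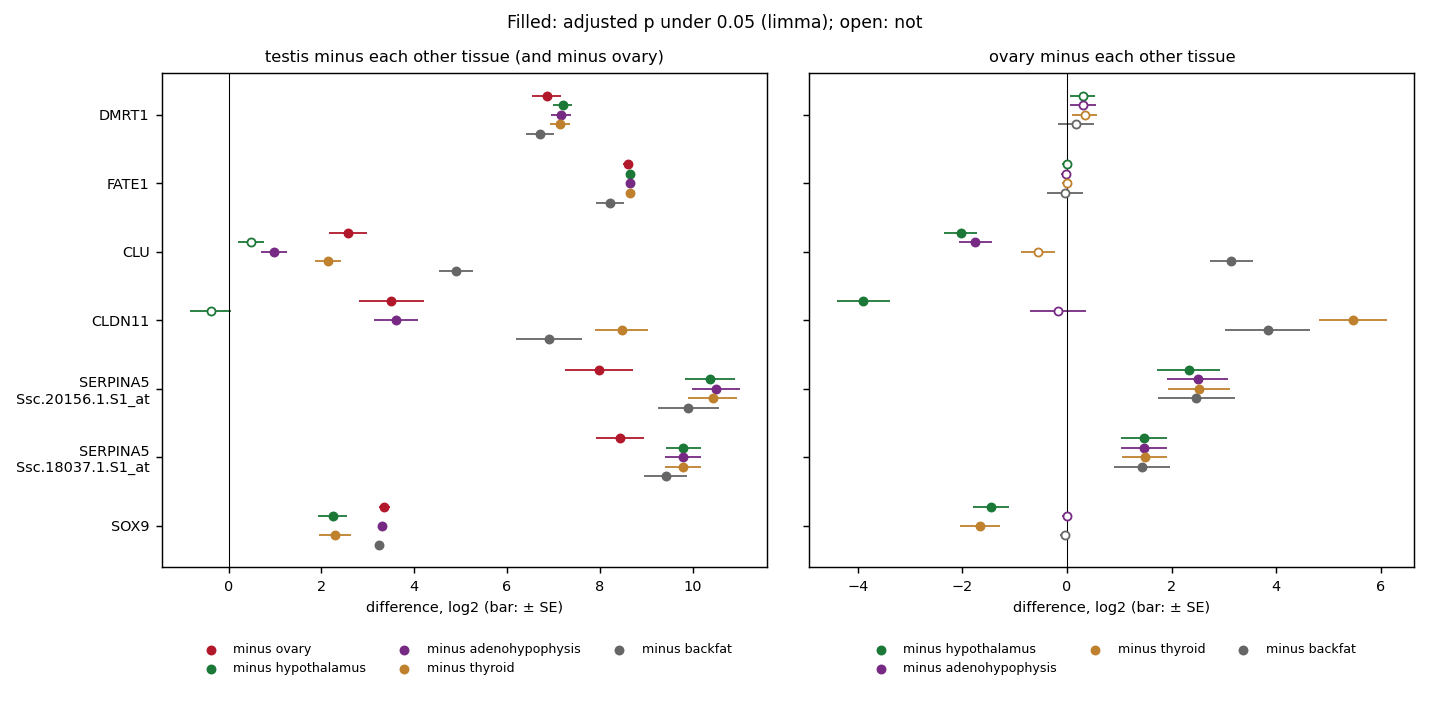
Difference in log2 level (horizontal axis, bars ± SE) of the testis (left) and the ovary (right) from each other tissue, and of the testis from the ovary, for each member probeset, filled where the adjusted p from limma was under 0.05. CLU and CLDN11 of the testis are open against hypothalamus, and DMRT1 and FATE1 of the ovary are open against all 4 tissues.

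Outside the gonads no member passed the test for sex. None of the 7 passed in hypothalamus (0.0667% of all probesets), adenohypophysis (0.500%), thyroid (0.0792%) or backfat (0.05%). Apart from the backfat array of YLM19, FATE1, DMRT1 and both SERPINA5 probesets lay at or near the floor in both sexes there. SOX9 was at the floor in adenohypophysis and backfat. Values at the floor have no order, so these tests cannot show whether the sexes differ. With dim probesets left out, 2 of the 7 remained in each of these tissues. The smallest unadjusted p was that of CLU in the adenohypophysis, 2.4e-03, with males at 13.27 to 13.75 and females at 13.58 to 13.84, a difference of -0.20 (SE 0.05, adjusted p = 0.183). CLU in backfat was at 0.73 (SE 0.28, unadjusted p = 2.3e-02, adjusted p = 0.999). The sex difference in the gonads exceeded that averaged over the remaining tissues for 7 of 7 members, by 2.43 (SE 0.43) for CLU up to 8.56 (SE 0.16) for FATE1 (adjusted p from 5.4e-24 to 0.00104), where 13.9% of all probesets were higher and 12.3% lower in this interaction.

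CLU, CLDN11 and SERPINA5 had larger SDs among ovaries than among testes, and FATE1 and SOX9, at the floor in the ovaries, smaller ones. The SD was 2.51 and 1.89 for the SERPINA5 probesets, 2.04 for CLDN11 and 1.25 for CLU in the ovaries (2.48, 1.95, 1.75 and 0.97 without IBF25), against 0.26, 0.40, 0.31 and 0.15 in the testes. It was 0.027 for FATE1 and 0.094 for SOX9 in the ovaries, against 0.36 and 0.30 in the testes, and 0.68 against 0.62 for DMRT1, where DUF14 was the ovary that stood apart. These SDs were not compared by a test. The 3 ovaries with SERPINA5 at the floor, LWF05, LWF06 and IBF25, also had the highest CLU and the lowest CLDN11 of all 7. The same 3 averaged 6.07, 6.31 and 7.11 over 9 tight junction genes and 4.0, 3.88 and 4.64 over 3 other clade A serpins, where the other 4 ovaries lay at 4.07 to 4.87 and 2.20 to 2.27. Granulosa and oocyte genes stood apart in IBF25 only, and Leydig or theca cell genes ranged over all 7 from 4.50 in IBF25 to 11.10 in IBF22. The part of these other cell types in the members' levels was not tested. Because CLDN11 and SERPINA5 split the ovaries into separate clusters, no pooled correlation is given for them, and CLU and CLDN11 ran in opposite order there, with the 3 highest CLDN11 in the ovaries with the 3 lowest CLU.

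In the testes CLU and CLDN11 varied together. Over the 9 testes Pearson's r was 0.94 (exact permutation p = 2.5e-04, adjusted 0.00521 over the 42 relations computed between members in testes and ovaries) and Spearman's rho 0.85 (exact permutation p = 0.00607, adjusted 0.0708). Without IBM23 and LWM04, the testes farthest from the median CLU, r was 0.94, and with each breed centred on its own mean it was 0.74. The breeds held 2 or 3 testes each, too few for a value within a breed. CLU itself varied little, between 14.21 in IBM23 and 14.67 in LWM04. The SERPINA5 probesets also went together (r = 0.93, exact permutation p = 2.5e-04, rho = 0.93, exact permutation p = 7.5e-04, r = 0.75 without YLM19 and DUM12). No other pair passed in the testes after adjustment, the smallest p being that of FATE1 with CLDN11 (r = 0.79, exact permutation p = 0.0163, adjusted 0.121). Values of one array share its normalization.

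The testes of LWM02, YLM19 and YLM20 had averages of 8.65 to 11.02 over 6 meiosis and spermatid genes, against 2.50 to 3.79 in the other 6. They also had the highest CLDN11, at 13.64, 13.58 and 13.57. Their DMRT1, at 11.02, 10.01 and 10.55, and their FATE1, at 10.40, 10.70 and 10.55, exceeded all 6 other testes for DMRT1 in LWM02 and for FATE1 in YLM19 and YLM20, and lay among them otherwise. The part of germ cell transcripts in these levels was not tested.

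**Figure D3:**
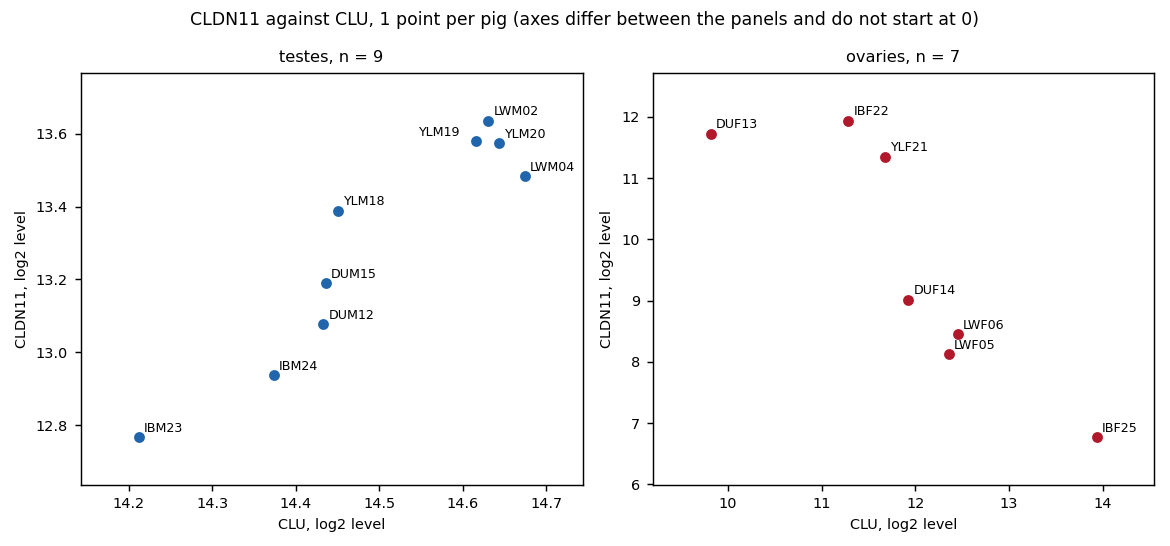
CLDN11 (vertical axis) against CLU (horizontal axis), both log2 levels, with 1 labelled point per pig, in the 9 testes (left) and the 7 ovaries (right). The testes rise from IBM23 to the 4 points at the upper right, and among the ovaries the 3 with the lowest CLU have the highest CLDN11.

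No member passed the test for breed in any tissue, in comparisons of 1 to 4 pigs per breed that can miss differences. In the testes 0 of 7 passed, as did 0% of all probesets, of which 3352 had an unadjusted p under 0.05. The smallest p values were those of CLDN11 and FATE1. CLDN11 had means of 13.56 in Large White, 13.51 in Youli, 13.13 in Duroc and 12.85 in Iberian testes (n = 2, 3, 2 and 2), with SDs from 0.08 to 0.12 and an adjusted p of 0.134 (unadjusted 1.4e-03). FATE1 had 10.55 in Youli, 10.40 in Large White, 10.01 in Iberian and 9.74 in Duroc testes, with an adjusted p of 0.146 (unadjusted 2.4e-03). DMRT1 was at 10.70 in Large White and 9.44 in Iberian testes, with Duroc and Youli between them (adjusted p = 0.551). SOX9 had breed means between 5.53 and 5.89 (adjusted p = 0.927).

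In the ovaries 0 of 7 passed (0.00417% of all probesets), with 1 Youli ovary in the comparison. The Duroc ovaries had the highest SERPINA5 by Ssc.20156.1.S1_at, 6.58 and 8.35, and the Large White ovaries the lowest, 2.18 and 2.23, while the Iberian ovaries were at 6.17 and 2.23 (adjusted p = 0.826). None of the 7 passed in hypothalamus (0.171% of all probesets), adenohypophysis (0.300%), thyroid (0.575%) or backfat (0.817%). With dim probesets left out, 2 of the 7 remained in each of these tissues. The others were mostly at or near the floor, where a test cannot show whether breeds differ. FATE1 and SOX9 were also at the floor in all ovaries. CLDN11 in the hypothalamus came nearest, at 14.08 ± 0.20 in Youli, 13.88 ± 0.26 in Duroc, 13.27 ± 0.47 in Large White and 13.21 ± 0.25 in Iberian pigs (SD, n = 4 each, unadjusted p = 4.4e-03, adjusted p = 0.196).

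**Figure D4:**
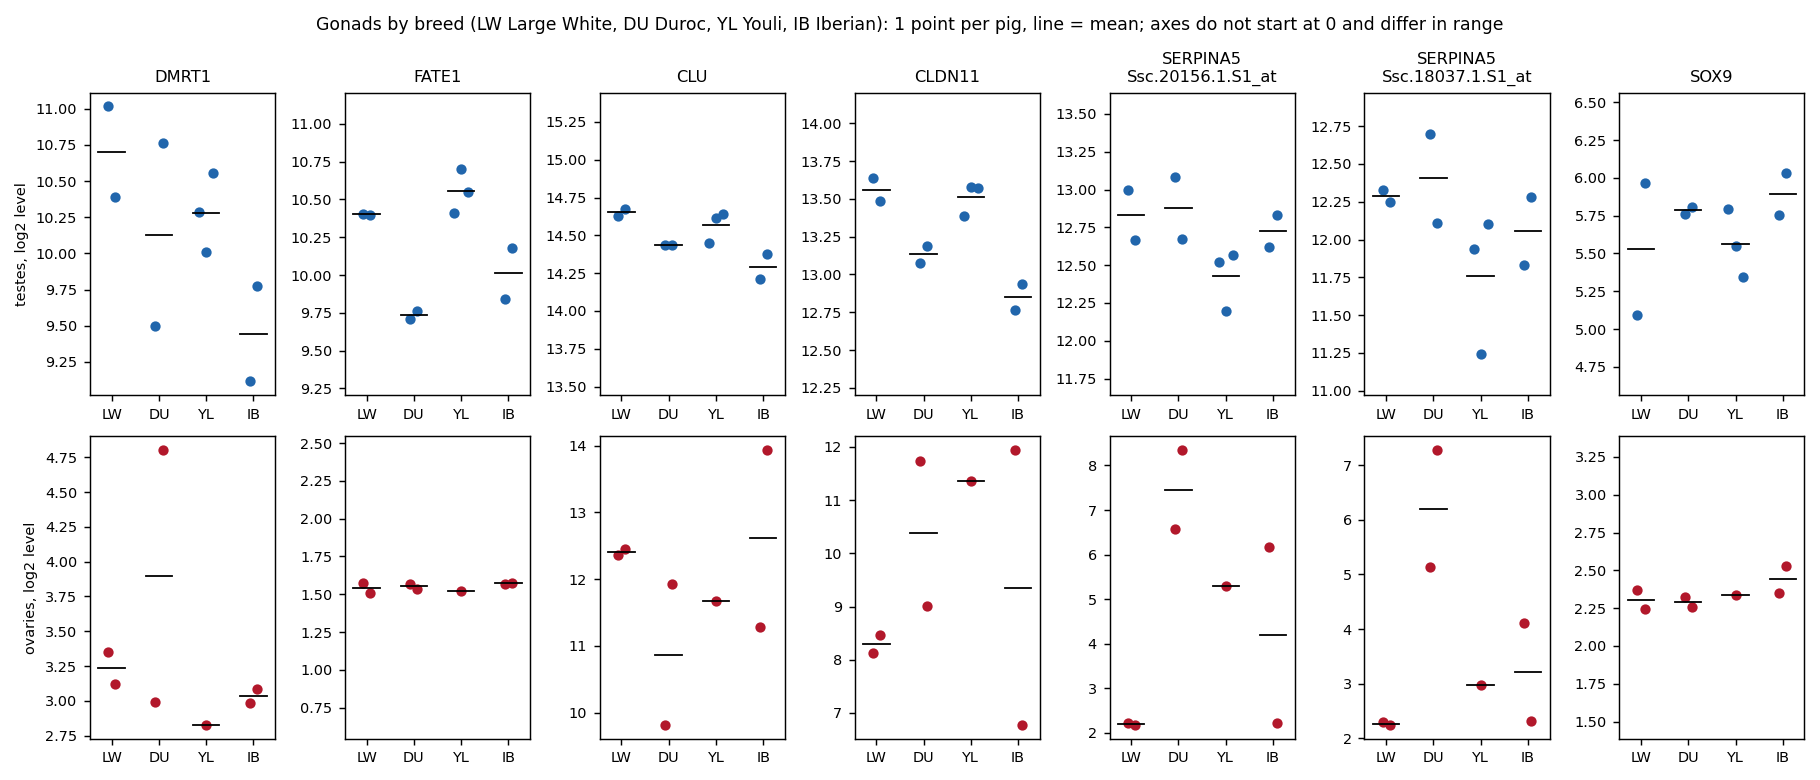
Log2 level (vertical axes, which differ in range and do not start at 0) of each member probeset in testes (upper row, blue) and ovaries (lower row, red) by breed, 1 point per pig with the mean as a line. CLDN11 is lowest in the Iberian testes and FATE1 in the Duroc testes, and the ovaries of a breed can lie far apart.

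In backfat, 5 of the 6 genes were higher on the array of YLM19 than on each of the other 15. DMRT1 was at 5.68 against 2.97 to 3.32, FATE1 at 5.28 against 1.56 to 1.62, and SERPINA5 at 7.11 against 2.20 to 2.28 by Ssc.20156.1.S1_at. CLU was at 11.21 against 8.12 to 9.98, and CLDN11 at 9.33 against 3.31 to 7.55. SOX9 stayed at the floor, at 2.53. All of these values lay below the lowest testis.

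Other testis transcripts were high on the same array. All 6 meiosis and spermatid genes exceeded the other backfat arrays, with PRM1, the protamine that packs sperm DNA, at 7.55 against 2.38 to 2.48 and the sperm protein CRISP2 at 8.55 against 2.65 to 2.90. Of the 24 other Sertoli cell and testis determination genes 8 did so, but most by little or near the floor, such as MRO (2.99 against 2.21 to 2.94), GATA4 (2.81 against 2.08 to 2.17) and MAP3K4 (7.22 against 5.97 to 7.06). LDHA, the muscle-type subunit of lactate dehydrogenase, was at 14.58 against 9.13 to 10.55, which is also above every testis (8.77 to 10.84). Of 9 Leydig cell genes 2 exceeded the other backfat arrays, CYP17A1 and INSL3. The 5 adipocyte genes included ADIPOQ at 11.53 against 12.46 to 14.04 and FABP4 at 13.55 against 14.80 to 15.12, both below all other backfat arrays. Over all probesets, 885 were at least 1 log2 unit above every other backfat array here, against 5 to 77 for any other backfat array. Of the 45 probesets with every testis at least 5 log2 units above those 15 arrays, 20 were among the 885. The testis of the same pig had the highest average of the meiosis and spermatid genes, 11.02. Without this backfat array the range of FATE1 over backfat was 1.56 to 1.62 and that of DMRT1 2.97 to 3.32. As with it, 0 of 7 members passed the test for sex or breed in backfat. FATE1, DMRT1, SERPINA5 and SOX9 were at or near the floor on the remaining arrays, so their tests there cannot decide. Testis minus the other tissues was then 7.13 for DMRT1, 8.65 for FATE1 and 10.44 for SERPINA5 by Ssc.20156.1.S1_at. The source of the testis transcripts on this array was not tested.

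**Figure D5:**
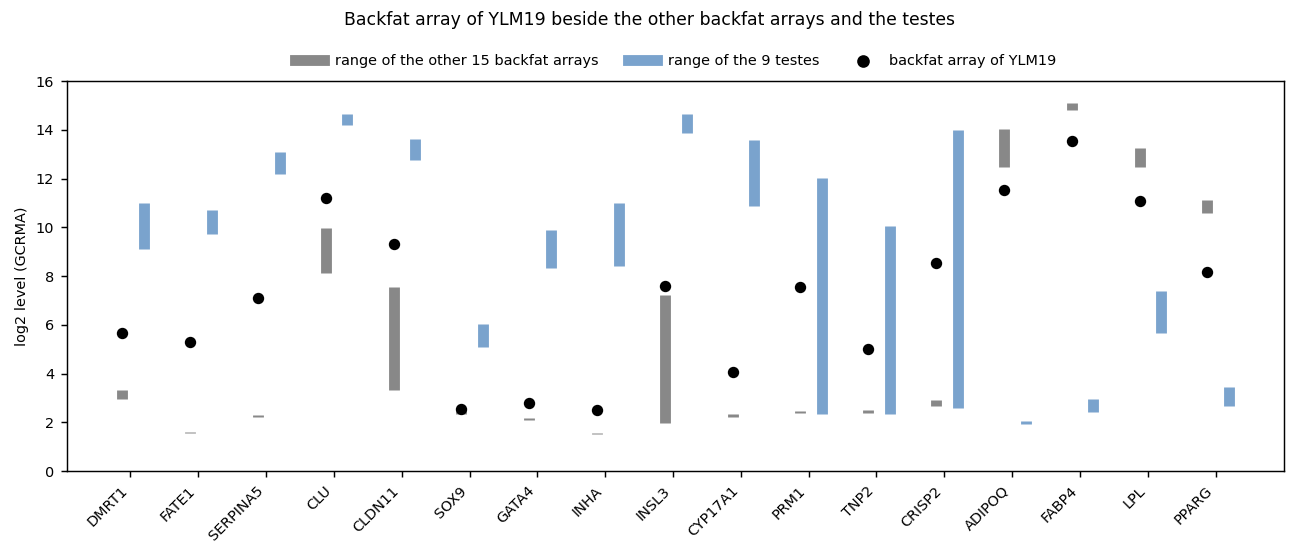
Log2 level (vertical axis) of the 6 member genes, of selected Sertoli, Leydig and spermatid genes and of 4 adipocyte genes on the backfat array of YLM19 (black points), beside the range of the other 15 backfat arrays (grey bars) and of the 9 testes (blue bars). The black points of DMRT1, FATE1 and SERPINA5 lie between both ranges, and those of ADIPOQ, FABP4, LPL and PPARG lie below the other backfat arrays.

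The genes most like each member over the 80 arrays were sought by the root mean square difference of the centred levels. DMRT1 and FATE1 were near each other, at 0.58, where the SD of the members over the arrays was 2.29 and 2.77. FATE1 had GLB1L3 (0.58), DMRT1 and the sulfotransferase SULT2A1 (0.86) as its nearest genes, and DMRT1 had FATE1, PLAC1 (0.68) and HSD11B2, an enzyme that inactivates glucocorticoids (0.78). SERPINA5 was nearest to CYP17A1 (0.95), LOC100623656 (1.09) and FATE1 (1.12), against an SD of 3.41. CLU had SHTN1, PANK1 and LOC100519808 at 0.84 to 0.92 (SD 1.89), CLDN11 had ACSL6, DKK3 and CD93 at 1.25 to 1.65 (SD 3.65), and SOX9 had HMGA1, DDT and FRS2 at 0.81 to 0.85, a distance not far below its own SD of 1.22.

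Within the 9 testes the nearest genes were others. DMRT1 was nearest to the cell cycle genes MYBL2 (0.17) and MCM5 (0.24), with NOP9 between them (0.20), against an SD of 0.62. FATE1 had SMPD4, TOMM5 and PRPF4 at 0.14 to 0.16, CLU had SMARCD3, BNIP3L and HNRNPK at 0.06 to 0.07, CLDN11 had MRPL32, LOC100512195 and NDUFA3 at 0.08 to 0.10, SERPINA5 had RANBP6, NME2 and ANP32B at 0.09 to 0.12, and SOX9 had COMMD3, OSTC and SH3BGRL3 at 0.12 to 0.15. The SD over the testes was 0.36 for FATE1, 0.15 for CLU, 0.31 for CLDN11, 0.265 for SERPINA5 and 0.30 for SOX9. These neighbours are the closest of the 6765 genes over only 9 arrays. How close the nearest gene would come by chance was not tested. No member was among the 3 nearest of another member in the testes.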

How the data were processed

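Total RNA of the 80 tissue samples was hybridised to Affymetrix Porcine arrays, and the authors normalized the arrays together with GCRMA, so that the deposited values are background-corrected log2 intensities. GCOS is named in the submitters' processing notes, with no version. Of 24123 probesets 124 controls were left out. Symbols came from the platform annotation, which gave 10069 probesets 1 symbol, 198 several and 13732 none. A gene with several probesets was represented by the one with the highest mean.

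Groups came from the array titles and labels. Values were fitted with limma 3.58.1 (R 4.3.3) within a tissue, with sex and breed as terms, or with breed alone in testes and ovaries. Each gonad was set against the mean of the pig's other tissues in 1 fit of 4 groups, and, added after the values had been seen, against each tissue. In these fits the 4 groups share 1 estimate of the spread for each probeset. P values were 2-sided and adjusted by Benjamini-Hochberg over all 23999 probesets, with 0.05 as the threshold. Beyond the members, the text names up to 3 called genes of each further list, by the size of the difference between testis and ovary, the defining markers, and the 3 nearest genes of each member. Other genes were named after their values were seen. The members and lists were chosen with earlier results of these data known.

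A pig's gonad and other tissues share a pig by their labels, and deviations from the group means correlated within each pig at r from 0.07 to 0.27 across probesets. Alternatives were a filter on dim probesets (log2 5 on 4 arrays), median centring, quantile normalization, a trended prior, no covariate, thyroid arrays by their fields, the pig as a block, the mean of a gene's probesets and leaving out each pig. The fits were run on simulated data with shifted probesets. Each simulated probeset had the same normal spread in every group, pooled over all arrays, with no link between tissues of a pig. Breed shifts were put on the Iberian pigs only. CLU, CLDN11 and SERPINA5 varied more among ovaries than among testes, so for such genes the recovery given for ovaries may be too high. Of 50 shifted by 1 log2 unit, the test of testis against ovary recovered 40. The breed test recovered 13 of 50 in testes and 0 of 50 in ovaries at that shift. At a shift of 6 the breed test recovered 48 of 50 in testes and 34 of 50 in ovaries. The arrays hold no counts, and the number of pigs limits the precision.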

Additional observations from a re-analysis of the deposited data

Results flagged for a closer look

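An array was looked at again where it lay far outside its group of 7 or 9 by Dixon's criterion. Of 70 groups of arrays, formed by tissue and sex for each member probeset, 14 held such an array, and chance gives about 1 in 20. Of these 14, 5 were the backfat array of YLM19 among the males, with DMRT1 at 5.68 (others 3.06 to 3.28), FATE1 at 5.28 (others 1.57 to 1.60), CLU at 11.21 (others 8.78 to 9.98) and SERPINA5 at 7.11 (others 2.20 to 2.26) and 5.30 (others 2.30 to 2.38). These 5 are values of 1 array.

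DMRT1 was high in the ovary of DUF14, at 4.80 against 2.83 to 3.35, and in the adenohypophysis of IBF22, at 3.38 against 2.86 to 3.06. By Ssc.20156.1.S1_at, SERPINA5 stood apart at 2.79 in the hypothalamus of YLM20 and 2.94 in that of LWF05, at 2.28 in the adenohypophysis of IBF22, and at 2.65 in the thyroid gland of LWM02 and 2.30 in that of IBF25. By Ssc.18037.1.S1_at it stood apart at 2.39 in the hypothalamus of DUF14, and SOX9 did at 2.51 in the adenohypophysis of IBM23. Apart from DUF14, these values lay near the floor of the scale.

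The sex difference in the gonads also differed from that in the other tissues of the same pigs by the interaction test in limma, for each member. The interaction was 6.78 for DMRT1, 8.56 for FATE1, 2.43 for CLU, 3.34 for CLDN11, 7.85 and 8.24 for SERPINA5 and 3.56 for SOX9.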

How the results depend on the processing

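The number of member probesets that passed stayed near that of the main fit in 286 of 286 recomputed counts over the 14 comparisons. It was not always equal, because CLDN11 of the ovary passed under some settings only. Of 469 recomputed differences of single members, 463 kept their direction and their side of the threshold. The other 6 all concern the ovary against the other tissues. CLDN11 passed with dim probesets left out (1.31, adjusted p = 0.0389), without IBF25 (1.88) and without LWF05 (1.63, adjusted p = 0.0293). Its difference turned to -0.0737 with thyroid arrays by their fields, where pigs cannot be matched and the thyroid, its lowest tissue, left the mean. CLU ranged from -0.60 without IBF25, its highest ovary, to 0.0743 without DUF13, its lowest (adjusted p = 0.83). Why these ovaries differ was not tested. FATE1 turned to 0.00268 under quantile normalization (adjusted p = 0.988). All ovaries had FATE1 at the floor, at 1.51 to 1.58, so the sign of its difference has no meaning. With the pig as a replicate block the counts stayed at 7 in testis, 3 in ovary and 7 for the interaction, with CLDN11 of the ovary at an adjusted p of 0.0702, and the block changed no call. Leaving out the backfat array of YLM19 was chosen after seeing the data.

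Median centring moved the median difference of all probesets between testis and ovary from 0.02 to 0.12 and the share of higher among all calls from 53.2% to 67.0%, from 53.2% to 71.2% for the interaction and from 41.6% to 23.2% for the ovary against the other tissues. Member directions held under it. Counts over all probesets by breed moved by over 1.5 times. In testes 0 became 4 with dim probesets left out and with centring, 1 with quantile normalization and 9 with a trended prior, and 0 to 14 with a pig left out (14 without IBM23). In ovaries 1 became 0 with the filter or centring, 15 with the trended prior and 458 without IBF22. Backfat went from 196 to 593 with the trended prior, 298 without covariate and 48 (without LWM04) to 414 (without YLM19), and hypothalamus from 41 to 79 without covariate and 20 (without DUM15) to 66 (without LWM02). Adenohypophysis went from 72 to 40 (without IBM23) and 178 (without LWF06), and thyroid from 138 to 56 (without YLF21) and 424 (without IBM24). Thyroid counts by the fields were 0 by breed and 0 by sex, from 19. By sex the adenohypophysis went from 120 to 77 without DUF14.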
